A study of Mus musculus with 20 samples.

Results

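OGD, the removal of oxygen and glucose that models ischaemia in a dish, was compared with normoxia in cortical neurons of ciRS-7 knockout mice. The comparison took the 10 knockout libraries by the genotype and treatment in their labels, 5 from each condition, out of 20 small RNA libraries in the series. The other 10 libraries came from wild-type neurons under the same conditions, which the series set beside the knockout to ask whether the response to OGD depends on ciRS-7. Neurons were taken from cortices at embryonic day 15 and kept for 7 days in Neurobasal medium with B27. Knockout cultures in the normoxic group spent 12 h at 37 °C and 5% CO2 with 25 mM glucose and 0.2 mM pyruvate. Knockout cultures in the OGD group spent the same 12 h at 37 °C with 1% O2 and 5% CO2 and no added glucose or pyruvate. The labels give the strain of all samples, wild type included, as C57BL/6N-Cdr1asem1Nikr, so the genotype was taken from the genotype label. Total RNA was extracted with TRIzol and made into libraries with the NEBNext small RNA kit and size selection. The design text calls the 5 samples of a group biological replicates, but no label says whether they came from separate cultures or embryos, so p-values measure the spread between these samples.

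MicroRNAs are short RNAs that guide Argonaute proteins to messenger RNAs, mainly through the seed at bases 2 to 8, and lower their translation and stability. Each is cut from a hairpin whose 5p and 3p arms can both be released, and usually one arm is retained while the other is degraded. In neurons, ciRS-7 (Cdr1as) is a circular RNA with many binding sites for miR-7, and miR-671 can direct its cleavage. It is not a microRNA, so its loss was not analysed here. The gene for miR-210, by contrast, is a target of the hypoxia-inducible factors and is widely used as a mark of low oxygen.

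The mature sequences of the entries that carry the main results are given here 5′ to 3′, from RefSeq on GRCm38.p6, with the seed (bases 2 to 8) in capitals. The first is the mark of low oxygen, the next 5 stand among the largest rises, and the following 3 among the largest falls. The arms of miR-671 moved apart, miR-7a and miR-7b share a seed and are bound by ciRS-7, and the last 3 share the AGUGCAA seed and were all called higher.
miR-210-3p: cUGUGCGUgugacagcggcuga
miR-3535: uGGAUAUGaugacugauuaccugaga
miR-6481: cACUGAAAaugcuuagaug
miR-12188-5p: uAGAAGAGcuuucgcuggcccaga
miR-5121: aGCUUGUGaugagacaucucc
let-7f-2-3p: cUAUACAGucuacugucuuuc
let-7c-1-3p: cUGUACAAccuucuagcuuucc
miR-410-5p: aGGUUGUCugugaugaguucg
miR-409-3p: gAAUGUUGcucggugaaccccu
miR-671-5p: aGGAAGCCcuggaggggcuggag
miR-671-3p: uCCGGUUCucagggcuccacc
miR-7a-5p: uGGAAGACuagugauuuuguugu
miR-7b-5p: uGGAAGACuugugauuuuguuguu
miR-130a-3p: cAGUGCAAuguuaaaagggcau
miR-130b-3p: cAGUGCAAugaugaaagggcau
miR-301a-3p: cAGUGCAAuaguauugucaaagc
The table named 1479 mature entries, of which 1247 had a sequence. No sequence is given for miR-712-5p, miR-124-5p, miR-124-3p, miR-30b-5p, miR-30b-3p and miR-485-5p.

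Levels are reads scaled to a common library total (CPM), computed from whole reads recovered from the deposited values. Differences are on the log2(CPM + 0.5) scale, OGD minus normoxia, tested with limma and adjusted by the Benjamini-Hochberg method over all 1479 entries. Normoxic libraries held 5884616 to 12477032 reads and OGD libraries 1811589 to 3119212, with no overlap (exact two-sided permutation test over 3 library measures, adjusted p = 0.012, raw p = 0.0079, the smallest that 5 against 5 can give). After all libraries were thinned to 1811589 reads, 852 to 900 entries had a read in normoxia and 987 to 1158 after OGD (raw p = 0.0079, exact permutation test). No molecular identifiers are mentioned, so reads are not independent molecules. RNA came from whole cultures, so fewer cells of a type and less RNA per cell cannot be told apart.

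After OGD, 363 of 1479 entries (24.5%) had an adjusted p under 0.05, 278 of them higher (18.8%) and 85 lower (5.75%). The split between higher and lower depended on the scaling: with libraries centred on their median, which moved the median of all entries by 0.52, 101 were higher and 263 lower, and quantile normalization gave 141 higher and 186 lower. An entry is therefore said to have risen or fallen here only where it was called with the same sign under all 3 scalings, which held for 96 higher (6.49%) and 83 lower (5.61%). Others are said to be called higher or lower under the library factors of the authors. Over the 420 entries with a mean of at least 3 on the log2 scale (7.5 CPM), 225 were called (53.6%), 155 higher (36.9%) and 70 lower (16.7%). Of these, 50 higher (11.9%) and 68 lower (16.2%) held under all 3 scalings, and the groups did not overlap for 188 (44.8%). The median difference was 0.24 over all entries and 0.20 over the 420. The 5 entries just inside the threshold had adjusted p-values of 0.0484 to 0.0498 and the 5 just outside of 0.0506 to 0.0518.

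The mark of low oxygen, miR-210-3p, stood at 22.4, 15.9, 47.7, 19.6 and 24.1 CPM in normoxic replicates 1 to 5 and at 119, 72.2, 184, 70.1 and 106 CPM in OGD replicates 1 to 5 (this order holds for all lists of values below). Every OGD library lay above every normoxic one, and replicate 3 was the highest of its group in both conditions. The level rose 4.22-fold, from 26.0 ± 12.6 to 110.2 ± 46.3 CPM (SD, n = 5), a log2 difference of 2.08 (SE 0.27, limma adjusted p = 2.3e-05). The rare other arm, miR-210-5p, went from 0.476 ± 0.212 to 3.18 ± 2.36 CPM (log2 difference 1.68, SE 0.42, adjusted p = 0.0064), and with quantile normalization its limma adjusted p was 0.078. Both arms come from 1 precursor at chr7:141221384-141221493 on the minus strand.

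**Figure D1:**
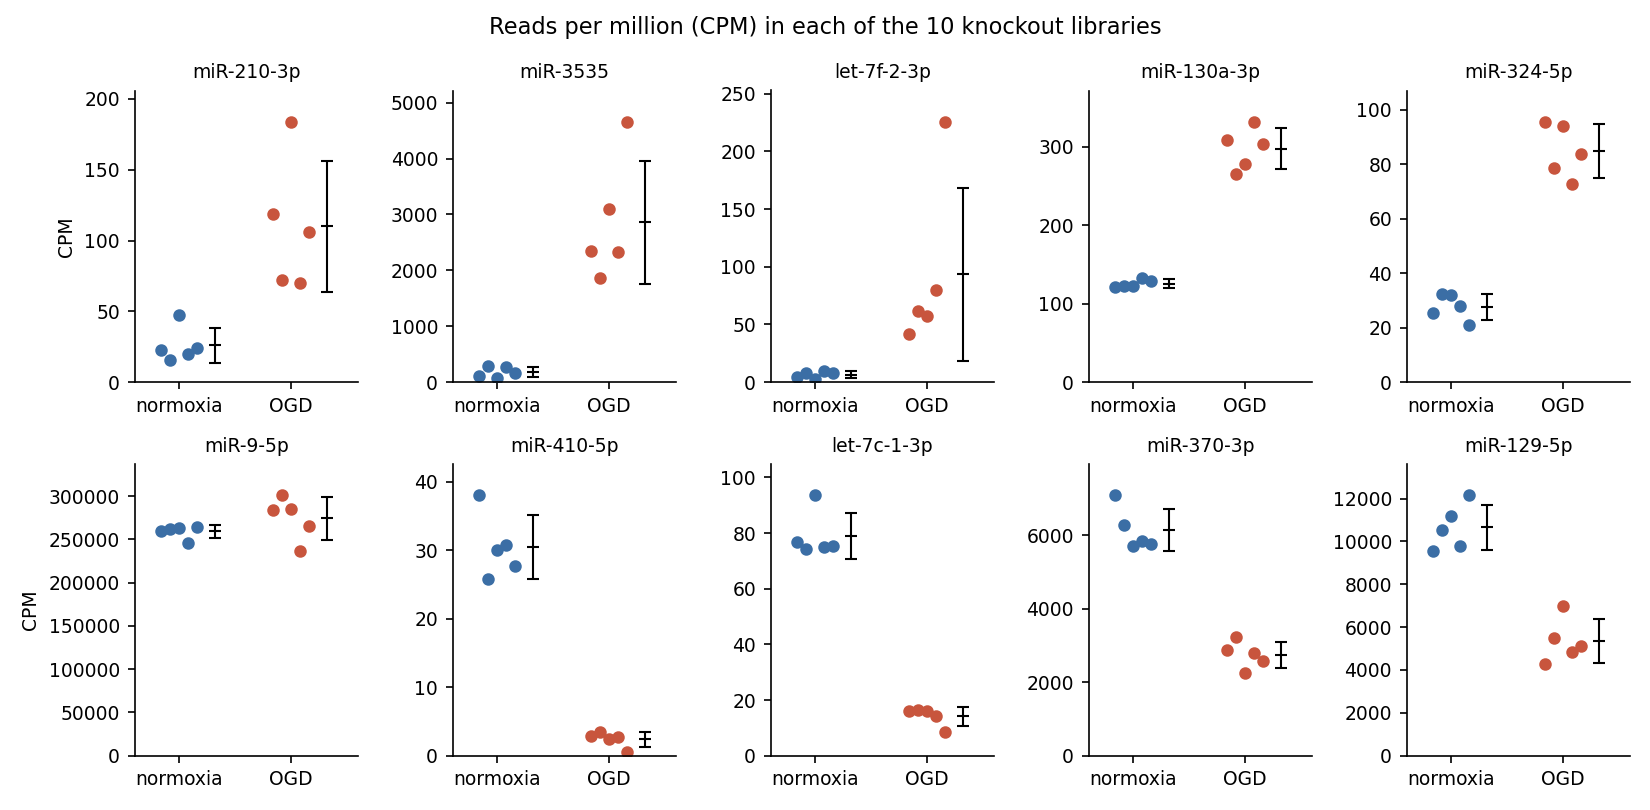
CPM by knockout library for entries named in the text, with a linear vertical axis from 0 in each panel; points are the 5 libraries of each group and bars the mean with its SD. For miR-210-3p the OGD libraries lie at 70.1 to 184 CPM and the normoxic ones at 15.9 to 47.7 CPM, with no overlap.

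Among entries with a mean of at least 3, the same call under all 3 scalings and groups that did not overlap, the 12 largest rises were those of miR-3535, miR-6481, miR-6238, miR-12188-5p, miR-6240, let-7f-2-3p, miR-5627-3p, miR-7087-3p, miR-6937-5p, miR-5121, miR-690 and miR-712-5p, with log2 differences of 4.09 down to 2.92. The level of miR-3535 was 102, 293, 74.3, 271 and 169 CPM in normoxia and 2342, 1867, 3092, 2329 and 4658 CPM after OGD. The lowest OGD library lay far above the highest normoxic one, and the log2 difference was 4.09 (SE 0.32, limma adjusted p = 1.2e-07). The level of miR-6481 was 1.25, 5.08, 3.58, 4.86 and 1.78 CPM in normoxia and 42.9, 43.8, 43.1, 61.1 and 77.5 CPM after OGD (3.93, SE 0.30). An entry this low in normoxia passed the limit on the mean only through the OGD libraries. For miR-5121 the values were 37.3, 65.4, 38.4, 58.7 and 40.2 CPM against 326, 283, 409.7, 378 and 560.0 CPM (3.02, SE 0.18, adjusted p = 2.4e-08). All 3 were far apart between the groups, with less spread for miR-5121 than for miR-3535.

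Of the armed entries, miR-12188-5p went from 0.998, 3.12, 1.02, 3.37 and 1.45 CPM to 21.1, 24.9, 32.3, 32.3 and 50.7 CPM (3.78, SE 0.30). The passenger strand let-7f-2-3p went from 4.24, 7.63, 2.90, 10.1 and 7.79 CPM to 41.6, 61.8, 57.4, 80.2 and 226 CPM (3.58, SE 0.38, limma adjusted p = 2.4e-06). The 12 entries shared an order of libraries: OGD replicate 5, the shallowest library, was the highest in 12 of 12, and normoxic replicates 2 and 4 were the top pair of their group in 11 of 12. Normoxic replicates 1 and 3, the deepest and the shallowest of the group, were the lowest pair in 11 of 12. The part of depth and of these libraries in the rises was not tested beyond thinning and leaving libraries out, and all 12 were called higher after thinning to 1811589 reads and in each fit without 1 library.

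Entries were also counted by the arm in their name. Of all 195 entries whose name gives no arm, 58 were called higher and 1 lower (median 0.45), and 45 and 1 held under all 3 scalings. Over all entries 18.8% were called higher and 5.75% lower, and 6.49% and 5.61% held. At a mean of at least 3, which takes in the OGD libraries and so is more easily reached by an entry that is high there, 22 of 34 were called higher and 1 lower. Of the 198 3p entries in that range 67 were called higher and 41 lower, but under all 3 scalings 16 were higher and 40 lower. Of the 188 5p entries 66 were called higher and 28 lower, against 13 and 27 under all 3 scalings. Over the 420 entries in that range 36.9% were called higher and 16.7% lower, and 11.9% and 16.2% held. The summed level of the 195 entries without an arm was 7593 to 8769 CPM in normoxia and 12671 to 17447 CPM after OGD, or 0.818% ± 0.0489 and 1.42% ± 0.181 of CPM (SD, n = 5). The ranges did not overlap, and without miR-3535 they were 7424 to 8475 and 10342 to 12789 CPM. The single entry of this kind called lower was miR-30f, which went from 134 ± 34.1 to 83.1 ± 12.7 CPM (-0.66, SE 0.16, limma adjusted p = 0.0051).

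**Figure D2:**
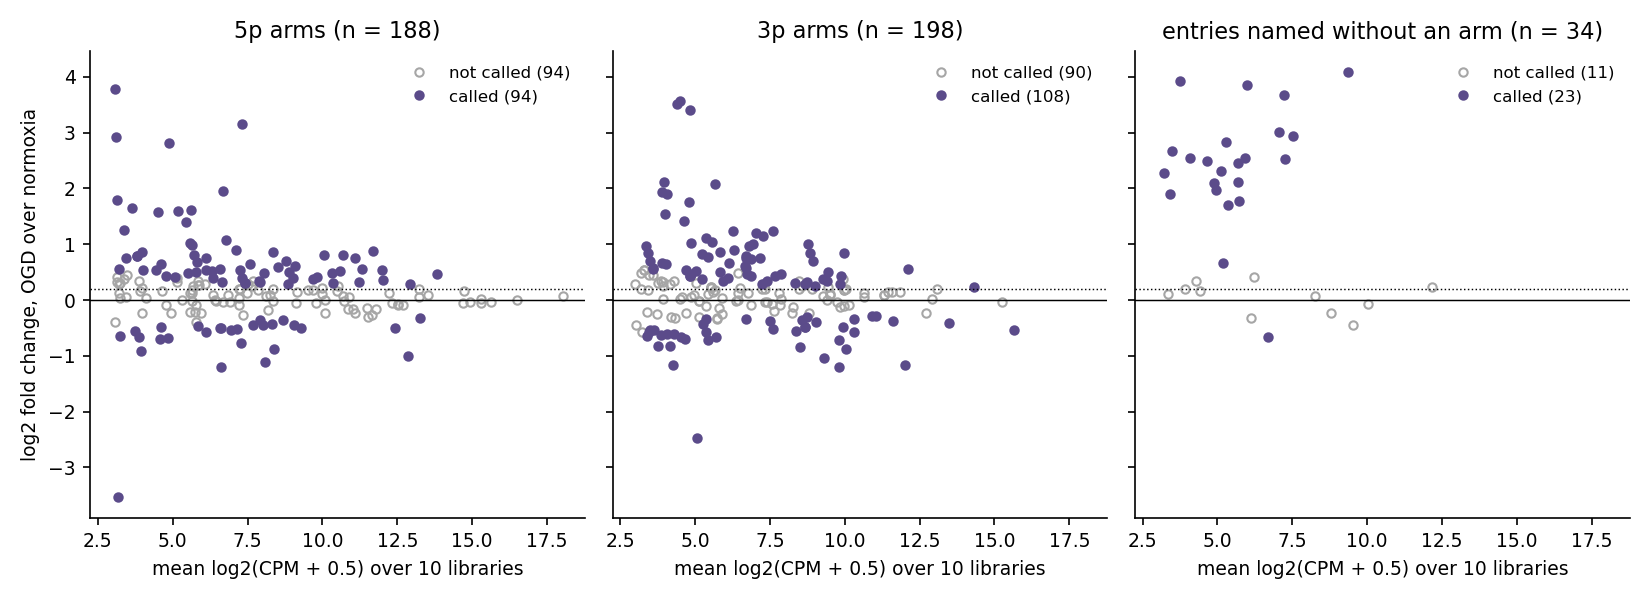
Log2 difference between OGD and normoxia against the mean log2(CPM + 0.5) over the 10 knockout libraries, for the 420 entries at a mean of at least 3, split by the arm in their name; filled points had an adjusted p under 0.05, and the dotted line is the median of 0.20. Of the 34 entries without an arm 22 were called higher, against 36.9% of the 420, and the largest, miR-3535, lies at 4.09.

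Several of these sequences also occur whole in transcripts of other kinds, counted in the GENCODE annotation of the same assembly. The sequence of miR-3535 lies in the small nucleolar RNA Gm24148, at chr1:86351981-86352127 on the minus strand, which overlaps an exon of Ncl. That of miR-5121 lies in Snord33, at chr7:45126918-45126991 on the minus strand within Rpl13a, which encodes a ribosomal protein. That of miR-6481 also lies in mt-Tf, the mitochondrial phenylalanine tRNA. Of the entries with a sequence and a mean of at least 3, 9 of 131 called higher matched another small RNA, against 1 of 63 called lower and 2 of 172 not called. Among those called higher without an arm the count was 6 of 19, and it was 3 of 112 among those with an arm. The mean takes in the OGD libraries and is more easily reached by an entry high there, so these counts are a description only. The sequences of miR-3470b, miR-3473a, miR-3473b and miR-706 each occurred in transcripts of at least 10 genes, and these 4 entries rose by 2.54, 2.45, 1.77 and 2.28. Reads of such entries cannot be assigned to the named hairpin from these data, and from which RNA they came was not tested.

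Under the same conditions on level, scaling and overlap, the 12 largest falls ran from -3.52 to -0.87 and were, from the smallest to the largest, those of miR-543-3p, miR-132-5p, miR-148a-5p, miR-129-5p, miR-125b-1-3p, miR-124-5p, miR-370-3p, miR-671-3p, miR-296-5p, miR-409-3p, let-7c-1-3p and miR-410-5p. In normoxia miR-410-5p stood at 38.0, 25.8, 30, 30.8 and 27.7 CPM, and after OGD at 2.93, 3.44, 2.39, 2.78 and 0.557 CPM. The highest OGD library was far below the lowest normoxic one, and the level fell 11.5-fold on the tested scale (-3.52, SE 0.29, limma adjusted p = 1.6e-07). The passenger strand let-7c-1-3p was at 76.9, 74.3, 93.6, 75.2 and 75.2 CPM and then at 15.9, 16.3, 16, 14.2 and 8.36 CPM (-2.47, SE 0.17, adjusted p = 3.5e-08). Its precursor lies within Mir99ahg at chr16:77599657-77599750, and the guide let-7c-5p, which comes from 2 precursors, this one included, went from 26814 ± 1129 to 25731 ± 536 CPM (-0.06, adjusted p = 0.57; -0.58 with centred libraries, adjusted p = 0.013).

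Abundant members also fell. The brain-enriched miR-129-5p was at 9547, 10551, 11199, 9805 and 12156 CPM in normoxia and at 4258, 5482, 7007, 4836 and 5135 CPM after OGD (-1.01, SE 0.11, limma adjusted p = 4.0e-06). The level of miR-370-3p was 7089.9, 6289, 5715, 5839.7 and 5766 CPM and then 2867, 3229, 2255, 2798 and 2570.5 CPM (-1.17, SE 0.10). The level of miR-409-3p was 1572, 1417, 1153, 1343 and 1402 CPM and then 543, 673, 543, 618 and 596 CPM (-1.21, SE 0.09). The groups were apart for each of the 3. The 24 largest changes were chosen for the same sign and call under the 3 scalings, so that agreement is no support. They kept it with the other alternatives and in each fit that left out 1 library. Those fits use the same 10 libraries and entries chosen for large changes, so this adds little.

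Both arms of 98 precursors had a mean of at least 3, and the ratio of 5p to 3p is free of the library scaling, which cancels apart from the pseudocount. Arms were paired by name, so reads of a mature sequence with more than 1 precursor are pooled. The ratio changed in 68 of 98 (69.4%), 37 toward the 5p arm (37.8%) and 31 toward the 3p arm (31.6%). The less abundant arm gained in 38 of the 68 and lost in 30. Across the 98 precursors, the differences of the 2 arms had a Pearson's r of 0.09 and a Spearman's rho of -0.01, a description across features from the same libraries. The median size of the difference was 0.28 for the more abundant arm and 0.47 for the less abundant one.

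**Figure D3:**
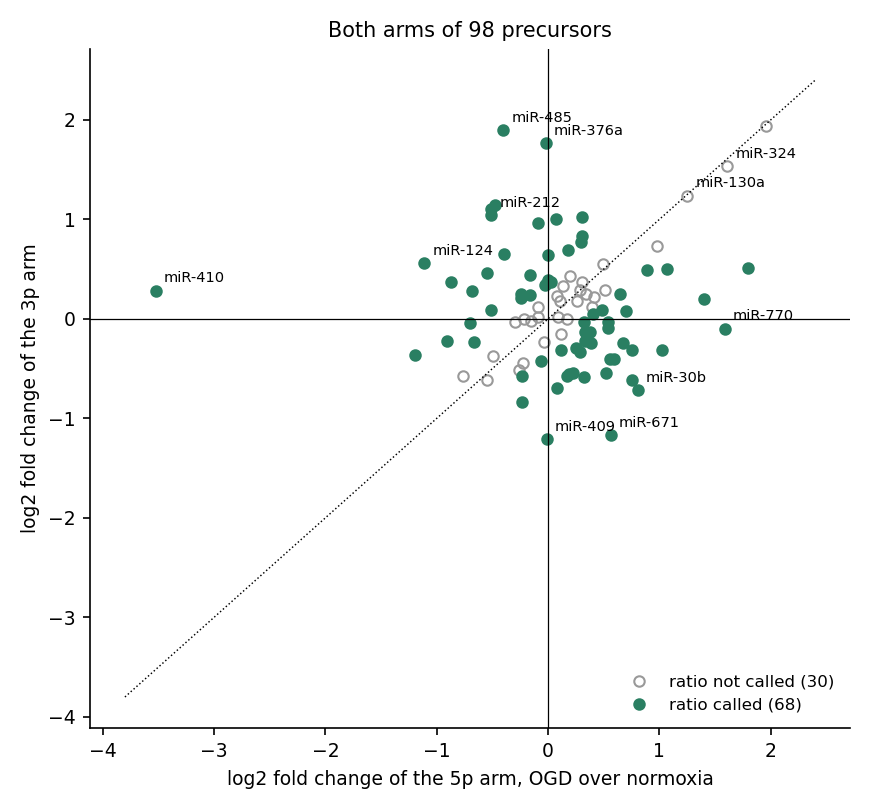
Log2 difference between OGD and normoxia of the 3p arm against that of the 5p arm, for 98 precursors with both arms at a mean of at least 3; the diagonal marks equal change of both arms, and filled points are the 68 precursors whose ratio changed. Points lie in all 4 quadrants, with miR-410 farthest to the left at -3.52 for its 5p arm.

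Toward the 3p arm, the 5p share of miR-410 fell from 3.57% ± 0.689 to 0.247% ± 0.116 of both arms' CPM (SD, n = 5), a change of the log2 ratio of -3.81 (SE 0.32, limma adjusted p = 4.8e-08). The share of miR-485-5p was 85.4% to 91.5% in normoxia and 49.1% to 68.9% after OGD (-2.30, SE 0.20). In miR-376a it went from 85.6% ± 2.11 to 62.8% ± 3.87 (-1.79), in miR-130b from 80.7% ± 1.07 to 57.4% ± 3.58 (-1.62), and in miR-212 from 83.7% ± 1.47 to 63.4% ± 5.24 (-1.55). In these 4 hairpins the 5p arm was on average the larger one in both conditions, and the groups did not overlap. In miR-124, the defining neuronal microRNA, the 5p passenger went from 9.95% ± 0.884 to 3.37% ± 0.588 (-1.67, SE 0.14).

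Toward the 5p arm, the share of miR-671-5p rose from 20.3% ± 3.63 to 46.6% ± 2.89 (log2 ratio 1.73, SE 0.15, limma adjusted p = 5.0e-08). The 5p share of miR-873a rose from 46.2% ± 4.42 to 68.1% ± 7.35 (1.33) and that of miR-3071 from 25.1% ± 2.65 to 47.2% ± 9.55 (1.37). In miR-361 it went from 33.1% ± 2.74 to 49.5% ± 5.08 (0.99) and in miR-345 from 16.1% ± 1.21 to 30.7% ± 1.97 (1.20). The 5p share did not overlap between the groups for 49 of 98 precursors. By contrast the arms of miR-130a, at 1.24 for the 3p and 1.25 for the 5p arm, and those of miR-324, at 1.61 for the 5p and 1.53 for the 3p arm, gave ratio changes of 0.01 and 0.08, which did not pass the test.

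**Figure D4:**
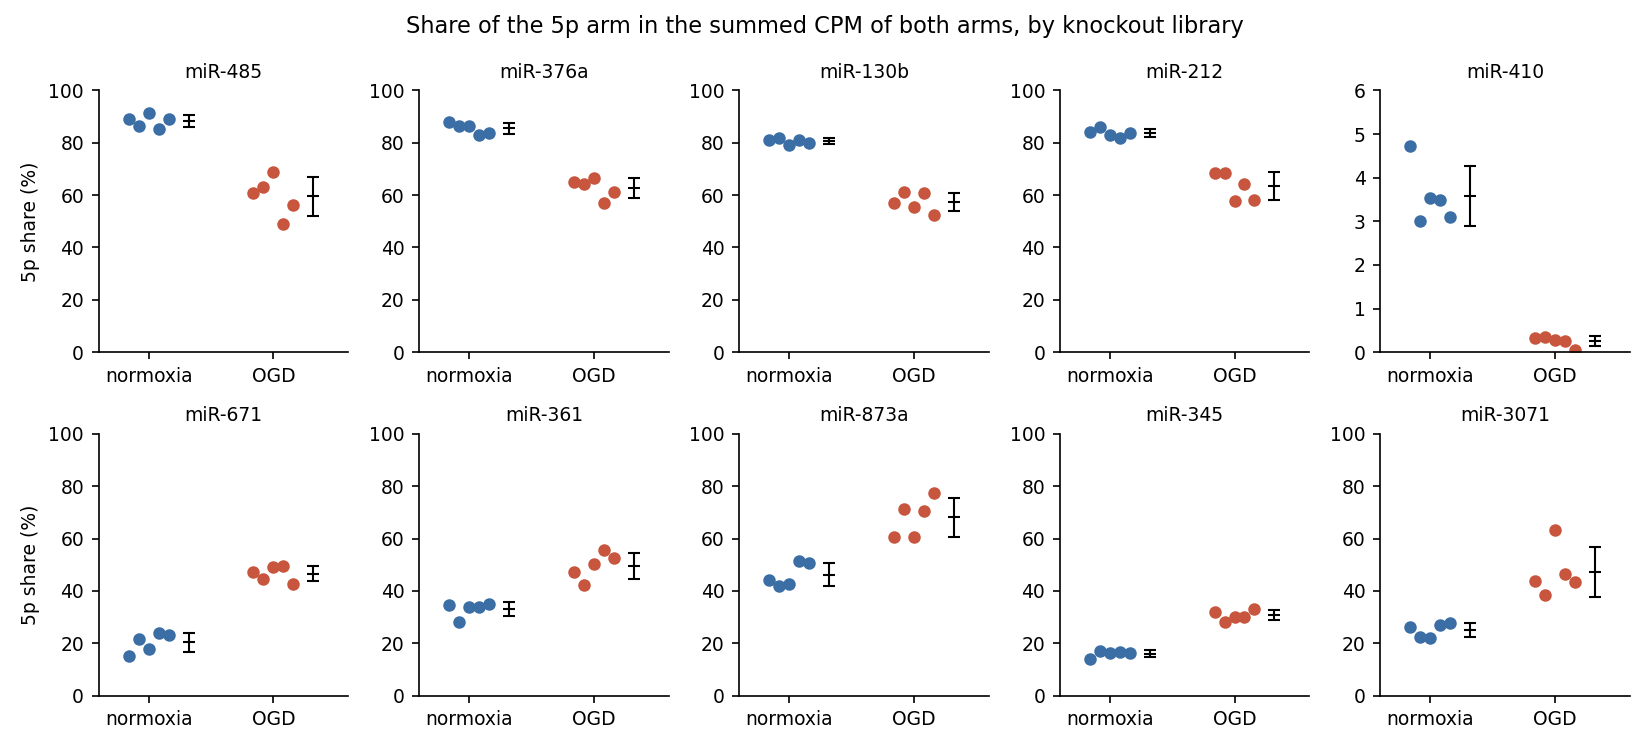
Share of the 5p arm in the summed CPM of both arms by knockout library, for 10 precursors; points are libraries, bars the mean with its SD, and the vertical axis runs from 0 to 100% except for miR-410, where it ends at 6%. In the upper row the share is lower after OGD (miR-410 at 0.247%) and in the lower row higher (miR-671 at 46.6%), with no overlap in the 10.

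Both arms were called in 30 precursors, both higher in 12, both lower in 3 and in opposite directions in 15. The opposite calls were those of miR-124, miR-127, miR-130b, miR-153, miR-1843a, miR-195a, miR-212, miR-301a, miR-3071, miR-30b, miR-331, miR-361, miR-410, miR-671 and miR-674. Of these, both arms held under all 3 scalings in miR-130b and miR-331. The level of miR-130b-5p was 136, 105, 113, 111 and 109 CPM and then 88.1, 78.2, 77.8, 85.8 and 73.0 CPM (-0.51, SE 0.10), while miR-130b-3p was at 31.4, 23.5, 29.8, 25.8 and 27.3 CPM and then at 66.0, 49.8, 62.6, 55.5 and 65.8 CPM (1.11, SE 0.13). Neither arm overlapped between the groups. The level of miR-331-3p rose from 103 ± 9.30 to 227 ± 14.8 CPM (1.14, SE 0.09), and that of miR-331-5p fell from 29.0 ± 5.86 to 20.4 ± 1.87 CPM (-0.48, SE 0.15, limma adjusted p = 0.027). The miR-331-5p call was lost without normoxic replicates 1 (adjusted p = 0.074) or 3 (0.080) and without OGD replicates 3 (0.057) or 4 (0.056). After thinning to the shallowest library it was also lost, at -0.24 (adjusted p = 0.378).

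The other arms called higher in these 15 precursors were called under the library factors and not under all scalings; those of miR-153-3p (-0.24), miR-1843a-5p (-0.20), miR-301a-3p (-0.06) and miR-410-3p (-0.24) lay below 0 with centred libraries. Leaving out single libraries lost the calls of several further arms, with the highest limma adjusted p being 0.099 for miR-153-3p without OGD replicate 5, 0.134 for miR-195a-3p without normoxic replicate 2, 0.068 for miR-361-3p without OGD replicate 4 and 0.072 for miR-410-3p without normoxic replicate 1. It was 0.108 for miR-671-5p and 0.087 for miR-674-3p, both without normoxic replicate 1, and 0.058 for miR-3071-3p without normoxic replicate 2. After thinning the adjusted p was 0.435 for miR-195a-3p, 0.158 for miR-3071-3p, 0.334 for miR-671-5p, 0.075 for miR-301a-3p and 0.053 for miR-410-3p, so these calls were lost too, and that of miR-195a-3p also with a pseudocount of 2 CPM (0.0502).

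Among the 7 entries linked to ciRS-7, which the knockout neurons lack, 2 were called higher and 2 lower, with a median of 0.06 against 0.24 over all entries; the counts were 0 and 3 with centred libraries and 1 and 3 with quantile normalization. In all, 4 of 7 were called, against 24.5% of all entries and 53.6% at a mean of at least 3, where 6 of the 7 lay, a share near that background. The level of miR-7a-5p, bound by ciRS-7, was 2066, 2704, 1773, 3282 and 2564 CPM in normoxia and 4700.3, 4344, 3661, 4548 and 5002 CPM after OGD. The groups did not overlap, and it was called higher (0.87, SE 0.14, limma adjusted p = 1.3e-04), also with quantile normalization (0.79) but not with centred libraries (0.35, adjusted p = 0.12). The more abundant miR-7b-5p, with the same seed, was at 8905, 11442, 8665, 10345 and 8211 CPM and then at 12149, 10995, 8591, 8627 and 9187 CPM (0.06, SE 0.11, adjusted p = 0.76). With centred libraries its difference was -0.46 (limma adjusted p = 0.057, and 0.026 with the replicate block), and with libraries centred on the median of entries with a mean of at least 3 it was called lower (-0.45, 0.010). Its groups overlapped nearly throughout on the CPM scale, and its rare other arm miR-7b-3p fell from 3.12 ± 0.330 to 1.21 ± 0.728 CPM (-1.19, SE 0.31), a call lost after thinning to the shallowest library (-1.06, adjusted p = 0.073).

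The level of miR-671-3p fell from 30.2, 26.9, 31.0, 27.6 and 26.7 CPM to 9.43, 12.9, 11.2, 16 and 13.4 CPM (-1.17, SE 0.15, limma adjusted p = 1.9e-05). The arm that can direct cleavage of ciRS-7, miR-671-5p, was at 5.41, 7.39, 6.82, 8.60 and 8.01 CPM and then at 8.45, 10.3, 10.8, 15.6 and 10 CPM (0.56, SE 0.19, adjusted p = 0.044), with 1 normoxic library above the lowest OGD library. With quantile normalization the difference of miR-671-5p was 0.00, and its call was lost in 8 of 10 fits without 1 library, as without OGD replicate 4 (adjusted p = 0.089). The precursor lies in an exon of Chpf2 at chr5:24592114-24592211.

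Of 10 neuron-enriched entries, 5 were called higher and 3 lower, with a median of 0.16, against 0 and 4 with centred libraries and 2 and 2 with quantile normalization. All 10 had a mean of at least 3, where 36.9% of entries were called higher and 16.7% lower. Those that fell under all scalings were miR-129-5p and miR-124-5p, the latter from 403 ± 39.0 to 187 ± 22.3 CPM (-1.11, SE 0.10). The guide miR-124-3p was at 4029, 3209, 4075, 3518 and 3470.2 CPM and then at 5442, 4900.1, 5003, 6105 and 5544 CPM (0.56, SE 0.09, limma adjusted p = 1.1e-04), apart between the groups, but at 0.04 with centred libraries (adjusted p = 0.88). For miR-138-5p, which restricts dendritic spine growth, the level went from 241 ± 17.2 to 441 ± 39.3 CPM (0.87, SE 0.09; 0.35 with centred libraries, adjusted p = 0.098). The level of miR-128-3p went from 63757 ± 15243 to 43234 ± 5069 CPM (-0.53, SE 0.14, adjusted p = 0.010). That call was lost without normoxic replicate 1 (adjusted p = 0.061), the highest library, without OGD replicate 3 (0.056), with quantile normalization (0.054) and after thinning (0.053).

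The activity-regulated pair miR-132 and miR-212 comes from neighbouring hairpins at chr11:75173682-75173747 and chr11:75173388-75173478 and is induced by CREB in active neurons. Of the list's 5 entries, 1 was called higher and 2 lower (median -0.06), against 0 and 3 with centred libraries. All 5 had a mean of at least 3, where 36.9% of entries were called higher and 16.7% lower. The passenger miR-132-5p fell from 451 ± 24.8 to 247 ± 36.2 CPM (-0.87, SE 0.10) and miR-212-5p from 170.1 ± 19.0 to 119 ± 16.8 CPM (-0.51, SE 0.11). The less abundant arm of miR-212 in both conditions, miR-212-3p, was at 28.6, 31.0, 38.9, 33.7 and 32.4 CPM and then at 52.7, 64.4, 98.1, 58.7 and 74.1 CPM (1.04, SE 0.15, limma adjusted p = 7.3e-05). With centred libraries its difference was 0.52 (adjusted p = 0.061). The guide miR-132-3p went from 863 ± 128 to 1136 ± 298 CPM (0.37, SE 0.14, limma adjusted p = 0.060). It was called higher without normoxic replicate 3 (0.46, adjusted p = 0.032) and with limma voom (adjusted p = 0.018). The deposited score (adjusted p = 0.0034), the filter on low values (0.045) and the replicate block (8.1e-04) also gave that call. The dendritic miR-134-5p, at 905 ± 128 and 871 ± 127 CPM, did not pass the test (-0.06), but was called lower with centred libraries (-0.58, adjusted p = 0.0070).

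The imprinted Dlk1-Dio3 region on chromosome 12 expresses a large group of neuronal microRNAs from the maternal allele. Of 26 entries from its Rian and Rtl1 antisense side, 8 were called higher and 7 lower (median -0.08), and 4 and 7 of them held under all 3 scalings. At a mean of at least 3, where 19 of the 26 lay, 36.9% of entries were called higher and 16.7% lower, and over all entries 18.8% and 5.75%. With centred libraries 4 were called higher and 12 lower, and with quantile normalization 4 and 11. Their summed level was 31721 to 37217 CPM in normoxia and 20798 to 25898 CPM after OGD, without overlap. The abundant miR-370-3p, shown above, and miR-127-3p fell, the latter from 13060.0 ± 1174 to 9854 ± 601 CPM (-0.40, SE 0.08, limma adjusted p = 9.6e-04). The members that rose were rarer: miR-665-3p went from 2.10 ± 0.717 to 13.7 ± 1.86 CPM (2.48, SE 0.22), and miR-540-5p, miR-770-5p and miR-337-3p rose by 1.80, 1.59 and 1.51. The level of miR-341-5p fell by 1.23 on the log2 scale, a call lost without normoxic replicate 1 (adjusted p = 0.060).

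Of 72 entries from the neighbouring Mirg cluster, 13 were called higher, a share near the 18.8% of all entries, and 10 lower, against 5.75% of all entries and 16.7% at a mean of at least 3, where 42 of the 72 lay (median 0.03). With centred libraries 4 were called higher and 28 lower, with quantile normalization 4 and 24, and without normoxic replicate 2 the number called went from 23 to 15. All 10 lower ones and 4 higher ones held under all 3 scalings. Beside miR-410-5p and miR-409-3p, miR-411-3p fell from 491 ± 51.5 to 275 ± 31.9 CPM (-0.84) and miR-543-3p from 1419.7 ± 184 to 779.9 ± 146 CPM (-0.87). The level of miR-485-3p rose from 9.31, 10.5, 6.48, 9.82 and 5.67 CPM to 33.8, 31.4, 20.7, 40.3 and 36.2 CPM (1.90, SE 0.21, limma adjusted p = 3.0e-06). That of miR-376a-3p rose from 14.7 ± 2.20 to 51.3 ± 9.37 CPM (1.77) and that of miR-154-5p from 75.0 ± 6.69 to 158 ± 20.2 CPM (1.07). Rises and falls thus occurred side by side among hairpins of 1 transcript region, and miR-381-3p, at 7739.5 ± 575 and 7890.5 ± 834 CPM, did not pass the test (0.02; -0.50 with centred libraries, where it did).

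**Figure D5:**
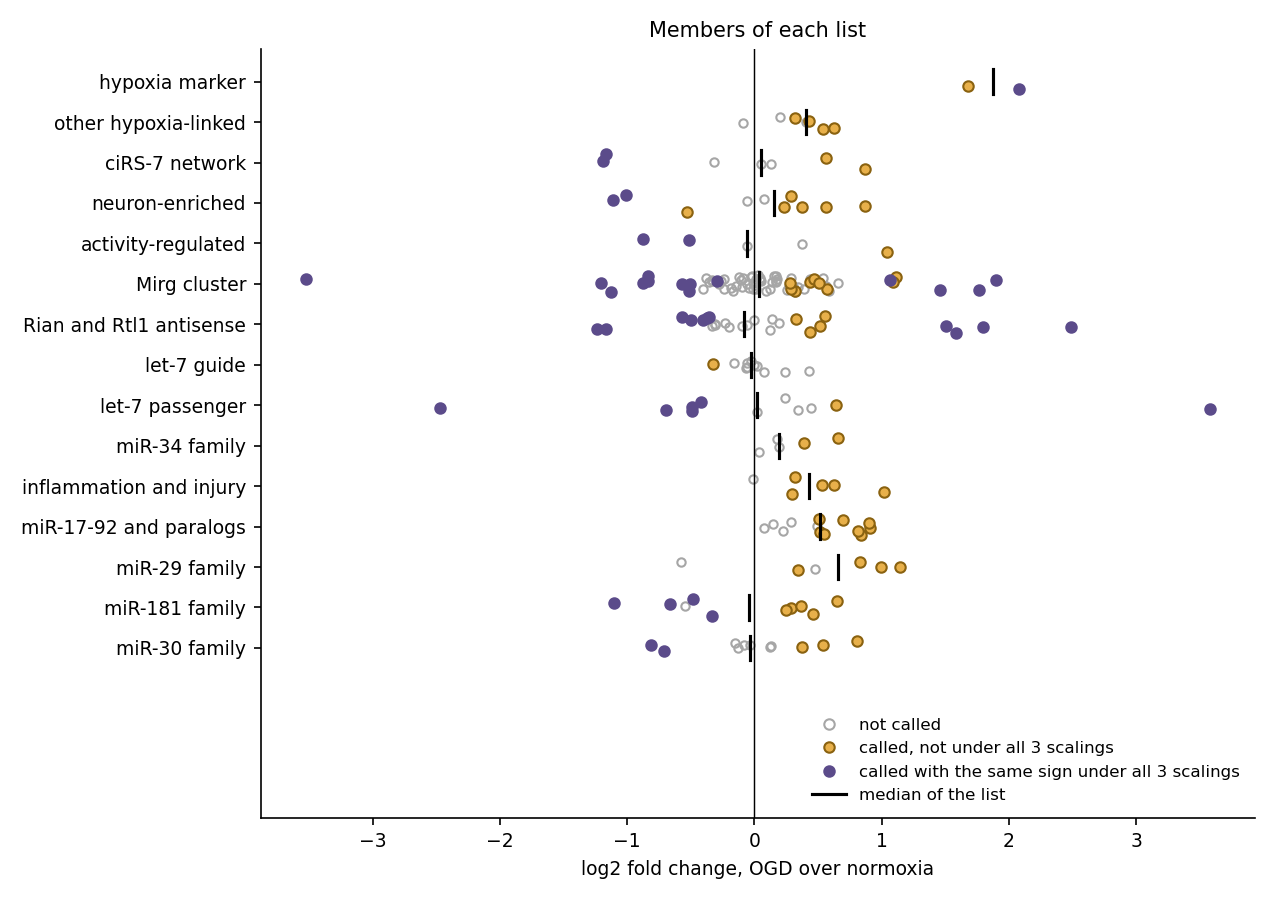
Log2 difference between OGD and normoxia of every member of 15 lists, 1 list per row, with the list's median as a bar; open points were not called, orange points were called under the library factors but not under all 3 scalings, and purple points were called with the same sign under all 3. The Mirg cluster spreads from -3.52 to 1.90, while the let-7 guides stay between -0.33 and 0.43.

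The let-7 family, which promotes differentiation and is among the most abundant in neurons, is listed by strand. Of 11 guide entries 1 was called (median -0.03), against 24.5% of all entries and 53.6% at a mean of at least 3, where 10 of the 11 lay. It was let-7a-5p, lower, from 10892 ± 807 to 8679 ± 382 CPM (-0.33, SE 0.07, limma adjusted p = 0.0027), a call not made with quantile normalization (-0.19, adjusted p = 0.068). With centred libraries 9 of the 11 guides were called lower, and without OGD replicate 4 the number called was 2. Of 11 passenger entries, 2 were called higher and 5 lower (median 0.02), and let-7a-1-3p and let-7c-2-3p among the 5 have the same reads in every library. At a mean of at least 3, where 10 of the 11 lay, 36.9% of entries were called higher and 16.7% lower. Beside let-7c-1-3p, let-7e-3p fell from 31.8 ± 1.69 to 19.5 ± 0.988 CPM (-0.69) and let-7a-1-3p from 487 ± 47.7 to 346 ± 27.3 CPM (-0.49). The passenger let-7f-2-3p rose, as given above, while the guide let-7f-5p, which also comes from 2 precursors, went from 40187 ± 2511 to 40913 ± 3252 CPM (0.02, adjusted p = 0.85; -0.50 with centred libraries, adjusted p = 0.040).

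Members that share a seed were compared where at least 3 distinct sequences had a mean of at least 3, which gave 12 seed families. Only the 366 entries in that range with a sequence were placed, so a family can have further members. In 8 of them the called members were all higher, in 1 all lower, in 1 in both directions, and in 2 none was called, all under the library factors, with which 36.9% of entries in that range were called higher and 16.7% lower. Under all 3 scalings higher calls held only in the AGUGCAA family, for 2 members, and lower calls only in the UAUACAA family, for let-7b-3p and for let-7a-1-3p with let-7c-2-3p, which share their reads. In the AGUGCAA family, the 3 members with a sequence, printed above, were all called higher. The level of miR-130a-3p, at chr2:84741115-84741178, was 121, 123, 122, 133 and 129 CPM in normoxia and 308, 265, 278, 332 and 304 CPM after OGD, a rise of 1.24 with wide separation (SE 0.09, limma adjusted p = 5.1e-08). The level of miR-130b-3p rose by 1.11, and that of miR-301a-3p was 24.2 ± 2.34 and 33.7 ± 4.97 CPM (0.46, SE 0.13, adjusted p = 0.016; -0.06 with centred libraries and -0.09 with quantile normalization). The summed level of the 3 members went from 177 to 391 CPM.

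The miR-17-92 cluster and its paralogs, known from dividing progenitors, had 8 of 13 entries called higher and 0 lower (median 0.52), but with centred libraries 0 were called higher and 1 lower. Of all entries at a mean of at least 3, where 11 of the 13 lay, 36.9% were called higher. The level of miR-93-5p was 981, 1407, 1408, 1232 and 1231 CPM and then 2044, 2065, 2723, 1912 and 2234 CPM (0.81, SE 0.11, limma adjusted p = 3.2e-05; 0.29 with centred libraries, adjusted p = 0.23). Every OGD library was above every normoxic one. OGD replicate 3 was the highest library for 9 of the 11 entries with a mean of at least 3, as for miR-210-3p, and the part of that library was not tested beyond leaving it out. In the AGCAGCA family, miR-16-5p went from 1679 ± 112 to 2865 ± 418 CPM (0.76, SE 0.10; 0.24 with centred libraries, adjusted p = 0.29). In the miR-181 family 4 of 4 5p members were called higher, and of the 6 3p members 1 (miR-181c-3p) was called higher and 4 lower. At a mean of at least 3, where 8 of the 10 lay, 36.9% of entries were called higher and 16.7% lower. Over the whole family of 10, centred libraries gave 0 higher and 5 lower and quantile normalization 3 and 5. The level of miR-181c-5p went from 151 ± 15.6 to 237 ± 27.4 CPM (0.65; 0.13 with centred libraries), that of miR-181a-1-3p fell from 1174 ± 80.3 to 843 ± 92.8 CPM (-0.48), and miR-181a-5p, at 0.46, was at -0.06 with centred libraries.

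In the miR-30 family 3 of 11 entries were called higher and 2 lower (median -0.03), against 0 higher and 6 lower with centred libraries and 3 higher and 5 lower with quantile normalization. All 11 had a mean of at least 3, where 36.9% of entries were called higher and 16.7% lower, so these shares are near the background. The level of miR-30b-5p went from 800.0 ± 81.0 to 1402 ± 177 CPM (0.81, SE 0.10, limma adjusted p = 1.3e-05; 0.29 with centred libraries, adjusted p = 0.21), and miR-30b-3p fell from 54.5 ± 2.55 to 33.9 ± 8.91 CPM (-0.71, SE 0.15). The miR-29 family, which targets collagen and BH3-only mRNAs, had 4 of 6 called higher (median 0.65), against 18.8% of all entries and 36.9% at a mean of at least 3, where 2 of the 6 lay. With centred libraries 0 were called higher and 1 lower, and the number called was 2 without any 1 of normoxic replicates 1, 2, 3 and 5 or OGD replicates 3, 4 and 5. The p53-regulated miR-34 family had 2 of 5 called higher (median 0.20), near the 36.9% at a mean of at least 3, where 3 of the 5 lay, 0 with centred libraries and 1 in 8 of 10 fits without a library; these included miR-34a-5p at 19.0 ± 2.33 and 30.3 ± 4.83 CPM (0.65, SE 0.15). No direction is drawn for these families.

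Of 6 inflammation and injury entries 5 were called higher (median 0.43), against 18.8% of all entries and 36.9% at a mean of at least 3, where 3 of the 6 lay. The count was 0 with centred libraries and 3 without normoxic replicates 1, 2 or 5 or OGD replicates 1 or 4. The NF-kB-induced miR-146a-5p was at 137, 123, 119, 135 and 111 CPM and then at 232, 159, 191, 172 and 157 CPM (0.53, SE 0.11, limma adjusted p = 0.0023), with no overlap, and at 0.01 with centred libraries (adjusted p = 0.97). Of 7 further entries linked to low oxygen, 4 were called higher and 0 lower (median 0.41), against 0 higher and 1 lower with centred libraries and 2 higher and 1 lower with quantile normalization. Of these 7, 5 had a mean of at least 3, where 36.9% of entries were called higher. The level of miR-107-3p went from 818 ± 61.1 to 1099 ± 36.2 CPM (0.43, SE 0.08; -0.09 with centred libraries), and that of miR-21a-5p from 2131 ± 81.1 to 2677 ± 328 CPM (0.32; -0.20 with centred libraries). The near-identical miR-103-3p did not pass the test at 0.20 (limma adjusted p = 0.092). It was called higher on the deposited score (adjusted p = 0.026), with limma voom (0.029), with the filter on low values (0.049) and with the replicate block (0.026), and it was called lower with libraries centred on the median of entries with a mean of at least 3 (-0.31, 0.030).

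The labelled cell type was checked against defining markers, whose counts of calls stand against 24.5% called over all entries and 53.6% at a mean of at least 3. Neuronal miR-124-3p stood at 3209 to 4075 CPM in normoxia. Microglial and myeloid markers summed to 0.853 to 2.25 CPM in normoxia and 1.04 to 5.59 CPM after OGD, with 0 of 5 called and 2 of 5 never above 3 reads. Of the 5 oligodendrocyte markers 1 was called higher and 1 lower, at a summed 77.5 to 99.0 and 63.5 to 81.6 CPM. The more abundant arm miR-338-5p fell from 67.3 ± 7.44 to 49.1 ± 7.78 CPM (-0.46, SE 0.13, limma adjusted p = 0.013), also under all 3 scalings. Its partner miR-338-3p went from 5.04 ± 0.845 to 8.98 ± 2.44 CPM (0.75, adjusted p = 0.016; 0.082 after thinning, and a difference of 0.23 with centred libraries). Endothelial markers had 0 of 2 called at 314 to 393 and 269 to 343 CPM, mesenchymal ones 0 of 5 at 70.1 to 114 and 79.5 to 141 CPM, astrocyte-enriched ones 1 of 3 at 69.6 to 88.2 and 83.7 to 108 CPM, and erythroid ones 2 of 4 at 279 to 354 and 361 to 397 CPM. The astrocyte-enriched and erythroid calls were all higher, and 0 of them held under all 3 scalings. The erythroid miR-486a-5p and miR-486b-5p have the same reads in every library, so they count the same reads more than once. The astrocyte-enriched and mesenchymal lists share miR-143-3p, so they do not separate these cell types. Endothelial miR-126a-3p was present in every library at 251 to 378 CPM and was called lower with centred libraries (-0.65, limma adjusted p = 0.0072; -0.13 and 0.37 with the library factors), and the part of other cells in the results was not tested.

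The most abundant entries, miR-9-5p and miR-99a-5p, had small differences under the library factors. Other abundant entries did not, as miR-128-3p and miR-129-5p, given above, were called lower. The level of miR-9-5p, a neural progenitor and neuron microRNA, was 259214 ± 7552 and 274359.6 ± 24676 CPM (0.08, SE 0.08, limma adjusted p = 0.54; -0.44 with centred libraries, adjusted p = 0.12, and called lower at -0.43 with libraries centred on the median of entries with a mean of at least 3, adjusted p = 0.0053). Next in abundance, miR-99a-5p was at 92589.9 ± 4863 and 92776 ± 7808 CPM (0.00, adjusted p = 0.998; -0.52 with centred libraries, adjusted p = 0.033). Of the 31 entries with a mean log2 level over 12, 5 were called higher and 5 lower (median 0.00), and 0 and 3 held under all 3 scalings. Of the 181 entries between 3 and 6 the counts were 74 and 27 (median 0.32), and 37 and 27 held. The 10 most abundant entries took 67.8% ± 0.605 of reads in normoxia and 66.5% ± 0.916 after OGD (exact permutation test, raw p = 0.040, adjusted over 3 measures 0.040). That difference did not pass the threshold in every fit that left out 1 library, as given below.

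In wild-type neurons, with separate libraries in both conditions, the same fit called 341 of 1478 entries (23.1%), 276 higher (18.7%) and 65 lower (4.4%). With centred libraries, which moved the median by 0.75 there, the split was 90 higher and 375 lower, and with quantile normalization 141 and 191. All 12 of the largest knockout rises were called higher there, at 3.35 to 4.71, and all 12 falls lower, at -3.32 to -0.57. Knockout minus wild type, the difference between genotypes lay between -1.05 and -0.33 for the 12 rises and between -0.31 and 0.45 for the 12 falls. The lowest raw p among the 24 for that difference was 0.13 (limma interaction term, adjusted p = 0.99). Over all 1481 entries the interaction called 0 (0.0%), with 74 at an unadjusted p under 0.05, and 0 of 98 arm ratios. Of the 68 arm ratios called in knockout, 62 were called in the same direction in wild type, where 63 of 98 were called (64.3%), 34 toward the 5p arm (34.7%) and 29 toward the 3p arm (29.6%). The wild-type difference was 2.49 for miR-210-3p and 0.64 for miR-7a-5p, neither of which passed the test of the difference between genotypes. A difference that misses the threshold does not show that the genotypes responded alike: for miR-3535 it was -0.60 (SE 0.56).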

How the data were processed

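Small RNA reads of 20 libraries (4 groups of 5) were deposited by the authors as 6 tables, 1 for each pair of groups, against mm10 per the submitters' processing notes; the aligner is not given in the sources used here. The deposited values are a score: its maximum in the knockout table was 35.8, above the largest possible log2 CPM of 19.9. From the values, not from a header, each deposited score was a read count times a library factor, raised to the power 0.106, with the extremes of each group of 5 limited at the quantiles 0.16 and 0.84. Undoing both steps gave whole reads for 100% of values (tolerance 0.05, largest distance 0.0146) and for 73.9% when the extremes were not restored; 59070 values shared between tables gave 0 differing reads.

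CPM used the authors' library factors. Differences were fitted with limma 3.58.1 (R 4.3.3; lmFit and eBayes with trend) on log2(CPM + 0.5) over 10 libraries, with two-sided tests adjusted over all entries by the Benjamini-Hochberg method (threshold 0.05); Python 3.11.15 did the rest. Arm ratios used the same fit on the difference of both arms. The genotype difference was an interaction over 20 libraries. The scripts were tested on simulated data. The pseudocount understates changes of rare entries.

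Named were up to 12 rises and 12 falls called with the same sign under the 3 scalings, with a mean of at least 3 and groups that do not overlap; the 20 most abundant entries; members of 21 lists; and precursors whose arms were called in opposite directions. Other named entries (such as miR-324, miR-345 and miR-873a arms, and entries matching many genes) were chosen after their values were seen. Members and lists were chosen with earlier results of these data known. Alternatives changed scaling, scale, count model, pseudocount, filter, depth, the replicate block and the libraries included. The main fits did not use the replicate numbers as pairs, and whether the numbers pair the samples could not be decided. No library was left out.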

Additional observations from a re-analysis of the deposited data

Results flagged for a closer look

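Single libraries stood apart in 18 of 256 groups of 5 that were looked at, where the gap of the highest or lowest library to the next exceeded 0.71 of the group's range; chance gives this in about 1 in 20 groups. After OGD, replicate 5 was the highest for let-7f-2-3p (226 CPM, the next at 80.2), miR-5627-3p (118) and miR-7087-3p (181), and the lowest for let-7c-1-3p (8.36). OGD replicate 3 was the highest for miR-301a-3p (42.3 CPM), miR-132-3p (1657), miR-17-5p (2234) and miR-20a-5p (4076) and the lowest for miR-3071-3p (9.18). OGD replicate 1 was the highest for miR-154-5p (193 CPM) and OGD replicate 4 the lowest for let-7i-5p (39749.6). In normoxia, replicate 3 was the highest for miR-210-3p (47.7 CPM) and let-7c-1-3p (93.6) and the lowest for miR-218-5p (4364). Normoxic replicate 1 was the highest for miR-130b-5p (136 CPM) and miR-126a-3p (378) and the lowest for miR-195a-5p (60.3), and normoxic replicate 4 was the lowest for miR-9-5p (246045).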

How the results depend on the processing

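Of 106 named entries that were called, 58 kept sign and call under every alternative and every fit without 1 library, 13 lost the call in at least 1 such fit and 43 under another alternative. The 363 calls became 364 with centred libraries, 327 with quantile normalization, 784 with limma voom (696 higher, 88 lower), 476 on the deposited score, 297 after thinning and 293 to 372 without 1 library. Same-numbered libraries had correlations of 0.48, -0.20, 0.26, 0.24 and 0.34 between conditions, and not every library correlated best with its own number. Such correlations cannot decide whether the numbers pair the libraries. With the replicate block 403 were called. The block made miR-132-3p a call (0.37, limma adjusted p = 8.1e-04). With libraries centred on the median of entries with a mean of at least 3, an alternative chosen after seeing the data, 436 were called (112 higher, 324 lower), and the signs of miR-9-5p (-0.43), miR-99a-5p (-0.51), let-7f-5p (-0.49), miR-26a-5p (-0.34), miR-9-3p (-0.28), miR-181a-5p (-0.051), miR-100-5p (-0.42), miR-7b-5p (-0.45), miR-340-5p (-0.32), miR-103-3p (-0.31), miR-381-3p (-0.49), miR-153-3p (-0.23), miR-1843a-5p (-0.19), miR-301a-3p (-0.046), miR-410-3p (-0.23), miR-107-3p (-0.081) and miR-21a-5p (-0.19) turned negative. With libraries centred on the median of all entries, with and without the replicate block, so did miR-99a-5p (-0.52), let-7f-5p (-0.50), miR-9-3p (-0.29), miR-181a-5p (-0.061), miR-381-3p (-0.50), miR-153-3p (-0.24), miR-1843a-5p (-0.20), miR-301a-3p (-0.055), miR-410-3p (-0.24), miR-107-3p (-0.091), miR-21a-5p (-0.20) and miR-17-5p (-0.0040), while miR-100-5p (-0.42) and miR-7b-5p (-0.46) were below 0 with and without the block and were called lower with it. Quantile normalization turned miR-153-3p (-0.091) and miR-301a-3p (-0.088).

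List counts that moved by over 1.5 times were as follows. With centred libraries (also with the replicate block) the number called was 1 for other hypoxia-linked entries, 4 for neuron-enriched, 9 for let-7 guides, 0 for miR-34, 0 for inflammation and injury, 1 for miR-17-92, 1 for miR-29 and 5 for miR-181, all of them lower. With the centring chosen after seeing the data it was 2 for other hypoxia-linked entries, 38 for the Mirg cluster, 9 for let-7 guides, 0 for miR-34, 0 for inflammation and injury, 3 for miR-17-92, 2 for miR-29, 5 for miR-181 and 9 for miR-30. With quantile normalization it was 1 for the hypoxia marker, 4 for neuron-enriched, 0 for let-7 guides, 0 for miR-34, 1 for inflammation and injury, 1 for miR-29 and 8 for miR-30. After thinning it was 2 for the ciRS-7 network, 14 for the Mirg cluster, 1 for miR-34, 3 for inflammation and injury, 1 for miR-29 and 3 for miR-30. The let-7 guides had 2 called on the deposited score and 2 with the replicate block, and the miR-34 family 1 with CPM from total reads. Without 1 library the counts ran from 15 to 22 for the Mirg cluster, 3 to 5 for inflammation and injury, 1 to 2 for let-7 guides, 2 to 4 for miR-29 and 1 to 2 for miR-34. The genotype interaction called 0 to 1 entries, and the difference in the share of the 10 most abundant entries ran from -1.55 to -0.97 percentage points, past the threshold in 4 of 10 fits. The arm ratio, with alternatives chosen after seeing the data, called 61 to 68. The cause of these shifts was not tested. Depth limits rare entries: 3 reads, the floor, weigh more in the OGD libraries, which are shallower.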
